A study of Rattus norvegicus with 11 samples.

Results

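The comparison described here sets retinas of P23H rats injected with dimethyl sulfoxide (DMSO), the solvent, against retinas of untreated wild-type rats. It takes 7 of the 11 RNA sequencing samples of the study, namely the 5 labelled P23H with DMSO and the 2 labelled wild type and NOTREAT. Of 12037 genes in the deposited gene table, 12031 were tested, and of 95472 transcripts in the transcript table, 43372 were tested. The remaining 4 samples, from P23H retinas given halofantrine, were also in the fit, where they contributed to the scaling, the filter and the estimate of spread.

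The study asked what an antimalarial drug, halofantrine, does in retinal degeneration, and P23H with DMSO was its diseased control. The P23H DMSO rats were female and hemizygous for the transgene of P23H line 1, with a cross labelled P23HxLE (P23H line 1 with Long Evans), and received intravitreal injections of 5 µL in both eyes. The wild-type rats were female, of a cross labelled SDxLE, and were not injected. Genotype, strain cross and injection therefore differed together between the groups and cannot be told apart here. The age of the rats at RNA collection was not given in the sources used here. Titles of the wild-type samples end in L and those of the P23H samples in R, and the labels do not say what the letter means. Each sample carries its own number, and the labels do not say what the number marks. The p-values below therefore take the sample as the unit, and those of the fit set each difference against the spread between samples.

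Rod photoreceptors are the most numerous cells of the rat retina and fill it with transcripts of a small set of very active genes, among them those of the light-sensing cascade. Rhodopsin is the light receptor of rods, and P23H, a substitution of histidine for proline in it, is a common cause of autosomal dominant retinitis pigmentosa, in which rods are lost first and cones later. In transgenic line 1 the mutant rhodopsin is made from a mouse gene on top of the rat's own. In bulk tissue, fewer cells of a type and less RNA per cell cannot be told apart.

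Library totals in the gene table were 11685202 to 34198536 counts for the 5 P23H DMSO libraries, and 18194941 and 12760768 for the 2 wild-type libraries. The tables give Ensembl identifiers without gene names, and no identifier could be matched to a symbol. The tissue label could therefore not be checked against retinal markers, and genes are described by abundance, size of change and agreement between libraries. Levels are given as CPM, a gene's counts relative to the total of its library at the usual common scale. They are not divided by transcript length. For group medians, abundance classes and named genes, library totals were scaled by the trimmed mean of M values (TMM). An abundance class is therefore a class of scaled library share.

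Expression was lost and gained in near-equal numbers of genes, but at different levels. By the quasi-likelihood test of edgeR, with a Benjamini-Hochberg adjusted p under 0.05 over all genes, 2548 genes (21.2%) differed between P23H DMSO and wild type. Of these, 1240 (10.3%) were lower in P23H DMSO and 1308 (10.9%) were higher. The lower genes were abundant, with a median wild-type level of 73.0 CPM, and their median in P23H DMSO was 44.3 CPM. The higher genes were scarce, with a median wild-type level of 18.1 CPM, and stood at a median of 36.3 CPM in P23H DMSO. Over all genes tested the medians were 38.0 CPM in wild type and 40.6 CPM in P23H DMSO.

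The call count depended on single libraries. Without P23H DMSO replicate 3, 3646 genes (30.3%) passed, 1917 lower (15.9%) and 1729 higher (14.4%). Without wild-type replicate 1 the count was 611, and without wild-type replicate 2 it was 519, with the remaining wild-type library then assumed to vary like the other groups. Without P23H halofantrine replicate 1, which is in neither group of the comparison, 2063 genes were lower. The balance of directions also moved with the scaling between libraries. With total counts in place of the trimmed mean of M values (TMM), the median log2 fold change of all genes shifted by 0.11, and 795 genes were lower and 1927 higher, so that 70.8% of calls were higher in place of 51.3%. With the authors' own library sizes, an alternative chosen after seeing the data, 1548 were lower and 1098 higher, or 41.5% higher.

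The share of genes called lower climbed with abundance, and the share called higher declined. Classes were set by the mean of the 2 group means in TMM-scaled CPM. Among 905 genes of 1 to 10 CPM, 3.76% were lower and 18.3% higher. Among 8690 genes of 10 to 100 CPM, 9.19% were lower and 11.3% higher. Among 2373 genes of 100 to 1000 CPM, 16.4% were lower and 6.49% higher. In the top class of 63 genes at 1000 CPM and over, 18 genes (28.6%) were lower and 2 (3.17%) were higher. The background over all genes tested was 10.3% lower and 10.9% higher, so that the lowest class lay below it for loss and above it for gain, and the highest class the other way round.

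**Figure D1:**
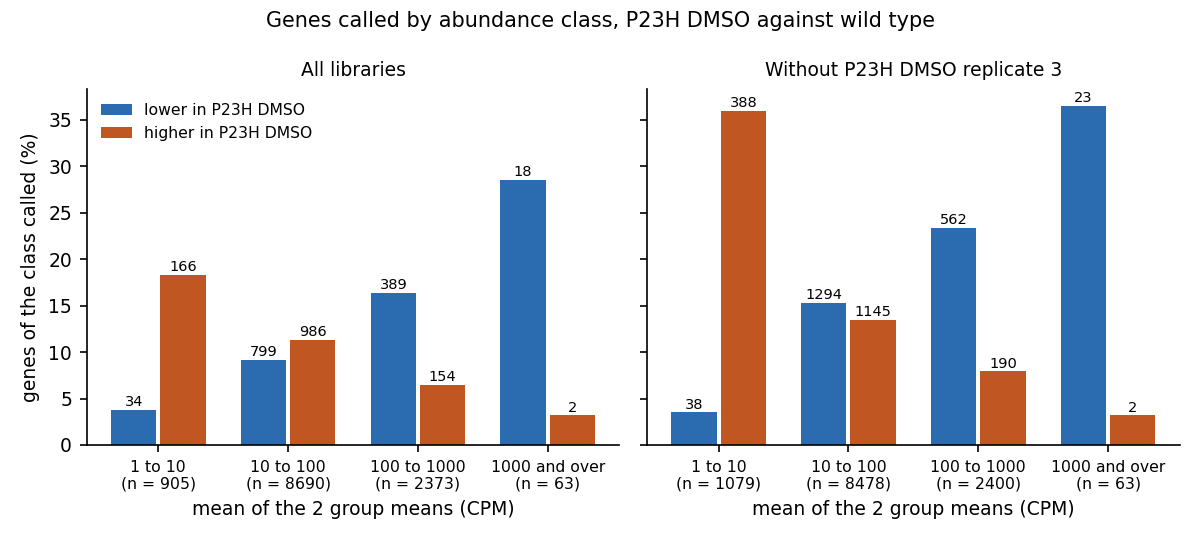
Percent of genes called lower (blue) or higher (orange) in P23H DMSO than in wild type, by abundance class in CPM, with all libraries (left) and without P23H DMSO replicate 3 (right); numbers over the bars are genes. The blue bars climb from 3.76% to 28.6% and the orange bars fall from 18.3% to 3.17% in the left panel, and the same order is seen in the right panel.

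The same order was seen without regard to the test. The median log2 fold change over every gene of a class, called or not, was 0.55 at 1 to 10 CPM, 0.04 at 10 to 100 CPM, -0.04 at 100 to 1000 CPM and -0.24 at 1000 CPM and over. Of the 63 genes in the top class, 49 (77.8%) had a fold change below 0, against 195 of the 905 (21.5%) in the lowest class. Without P23H DMSO replicate 3 the shares called lower were 3.52%, 15.3%, 23.4% and 36.5% from the lowest to the highest of these classes, and those called higher were 36.0%, 13.5%, 7.92% and 3.17%. With total counts the shares lower were 3.19%, 5.43%, 11.9% and 28.3%, and those higher were 23.6%, 16.6%, 10.8% and 5%. Total counts moved the median log2 fold change of every class by a similar amount, 0.08 to 0.11. A change of scaling was therefore a weak check of the order between classes. The order from the lowest to the highest class was the same under total counts, under median-of-ratios factors and under the authors' library sizes. Which direction was the larger within the class of 10 to 100 CPM was not, since 10.9% were lower and 9.77% higher with median-of-ratios factors, and 11.7% were lower and 9.41% higher with the authors' library sizes.

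Which genes the deposited table holds bears on the lowest class. Of its 12037 genes, 12001 (99.7%) had over 1 CPM in at least 9 of the 11 libraries, and 9 is also the number of P23H libraries. The table held 64 genes with over 1 CPM in all 9 P23H libraries and in neither wild-type library, and 1 gene with over 1 CPM in both wild-type libraries and in none of the 9 P23H libraries. Genes over this level in wild type alone were thus nearly absent from the table, and genes over it in P23H alone were not. The transcript table was not restricted in this way, and lists 22731 transcripts at 0 in all 11 libraries. It held 613 transcripts with over 1 CPM in all 5 P23H DMSO libraries and in neither wild-type library, and 248 with over 1 CPM in both wild-type libraries and in none of the 5. Without P23H DMSO replicate 3 these were 743 and 293. The 2 counts ask for agreement over different numbers of libraries and were not tested against each other.

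Most changes were small. Of the 1240 lower genes, 434 (35%) fell by less than 1.5-fold, 478 (38.5%) by 1.5- to 2-fold, 280 (22.6%) by 2- to 4-fold and 48 (3.87%) by 4-fold or more. Of the 1308 higher genes, 227 (17.4%) rose by less than 1.5-fold, 553 (42.3%) by 1.5- to 2-fold, 354 (27.1%) by 2- to 4-fold and 174 (13.3%) by 4-fold or more. The median fold was 1.63 for the lower genes and 1.84 for the higher genes. More genes were thus higher than lower by 4-fold or more, within the limit just given on genes over 1 CPM in wild type alone. Both counts of large gains and losses stood near the same value without P23H DMSO replicate 3, at 45 lower and 172 higher by 4-fold or more. The genes were not all the same, since 39 of the 48 and 112 of the 174 were still at 4-fold or more. The excess of large gains depended on the wild-type libraries and on the test. Without wild-type replicate 1, 47 genes were lower and 46 higher by 4-fold or more, and without wild-type replicate 2, 54 were lower and 43 higher. With limma-voom in place of edgeR, 57 were lower and 35 higher.

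**Figure D2:**
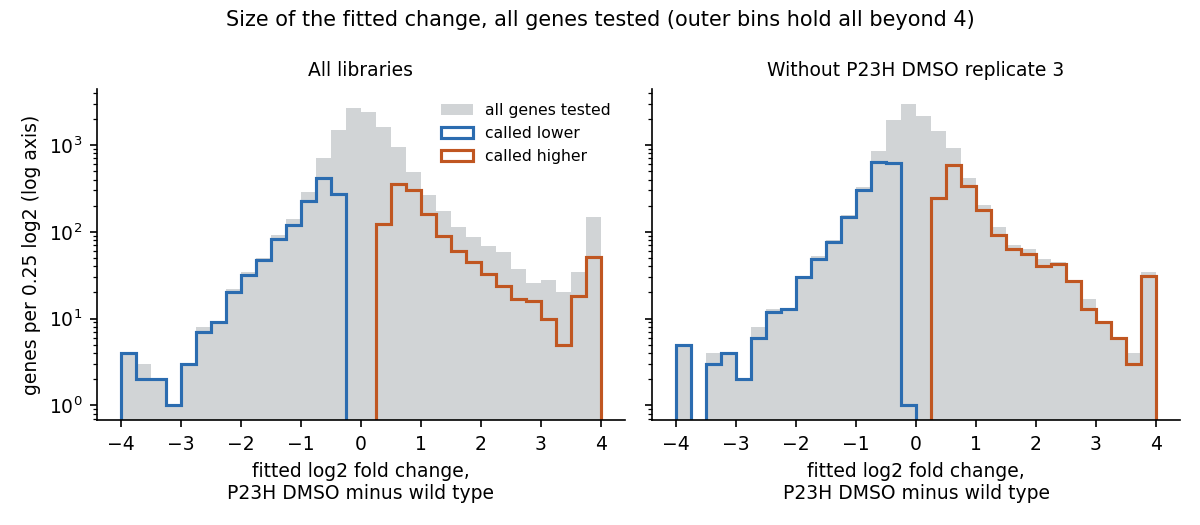
Number of genes per bin of 0.25 in fitted log2 fold change (P23H DMSO minus wild type, log count axis), for all genes tested (grey fill), genes called lower (blue line) and genes called higher (orange line), with all libraries (left) and without P23H DMSO replicate 3 (right). On the left, many genes with large gains were not called; on the right, 24 genes with a change of 4-fold or more were not called, in place of 248.

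A further 248 genes had a fitted change of 4-fold or more and were not called, 4 of them lower and 244 higher. P23H DMSO replicate 3 held the highest of the 5 P23H DMSO values in 243 of those 244 genes, against 34.1% of all genes tested. Their median log2 fold change was 3.35 with that library and 1.58 without it, and 162 of the 244 passed the test without it. Among the 174 called genes higher by 4-fold or more, replicate 3 was the highest library in 156 (89.7%), and their median log2 fold change was 2.92 with it and 2.28 without it. Of these 174 genes, 173 passed without it and 112 of them still had a change of 4-fold or more. Among the 48 genes lower by 4-fold or more, replicate 3 was the lowest library in 41 (85.4%), against 39.4% of all genes tested, and all 48 passed without it. The median for these 48 genes hardly moved, at -2.37 with the library and -2.36 without it.

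Replicate 3 lay on the same side of wild type as its group, and further out. Each P23H DMSO library was set against the genes called with that library left out, so that it took no part in the choice of genes, while the wild-type libraries were shared. Replicates 1, 2, 4 and 5 lay on the called side of the wild-type mean in 98.4% to 100% of genes. Replicate 3 did so in 1823 of 1917 lower genes (95.1%) and in 1637 of 1729 higher genes (94.7%). Its median log2 ratio to wild type was -0.77 over those lower genes, where the other 4 libraries had -0.53, and 1.24 over those higher genes, where the others had 0.81. For replicates 1, 2, 4 and 5 this median was 78.9% to 97.5% of that of the others, and for replicate 3 it was 145% and 153%. These percents are not fully alike, since the others included replicate 3 in every case but its own. All 1240 lower genes were called again without replicate 3, and of the 1308 higher genes 1189 (90.9%) were. No gene called in both fits changed direction between them. The genes shared made up 64.7% of the 1917 lower and 68.8% of the 1729 higher genes called without it.

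Differences between the groups were larger than those within them, except where replicate 3 took part. The median absolute difference between the 2 wild-type libraries was 0.0982 on the log2 scale over all genes tested. Pairs of P23H DMSO libraries without replicate 3 differed by 0.108 to 0.223, and pairs with it by 0.334 to 0.350. A P23H DMSO library other than replicate 3 differed from a wild-type library by 0.286 to 0.364, and replicate 3 by 0.441 and 0.456. Replicate 3 was thus about as far from its own group as the others were from wild type. The biological coefficient of variation in the fit was 0.266 with all 11 libraries and 0.173 without replicate 3.

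Overlap between the groups was also counted with no model. In 2856 genes (23.7%) each of the 5 P23H DMSO values lay below both wild-type values, and in 3261 genes (27.1%) each lay above both. Without replicate 3 these were 4030 (33.5%) and 3481 (28.9%), so that the lower side was then the larger. All 2548 called genes were among those whose groups did not overlap.

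In terms of library share, the called lower genes lost more than the called higher genes gained. Shares over all genes tested have the same total in every library, so the balancing gain lay in genes that were not called. The calls rest on TMM scaling, and these sums do not. The 1240 lower genes made up 24.4% of wild-type counts and 12.4% of P23H DMSO counts, with no TMM scaling in these shares. They lost 119994 ± 21523 CPM (SD over the 5 P23H DMSO libraries), between 102645 in replicate 5 and 156668 in replicate 3. The 1308 higher genes made up 4.35% of wild-type counts and 9.56% of P23H DMSO counts. They gained 52057 ± 18237 CPM (SD, n = 5), with 41046 to 47012 CPM in 4 libraries and 84457 CPM in replicate 3. The genes were chosen by the same difference, so that these sums are a description with no test. Without replicate 3, the 1917 lower genes lost 122937 ± 7243 CPM (SD, n = 4) and the 1729 higher genes gained 54309 ± 2824 CPM (SD, n = 4). The loss was 65708 CPM over the genes called without wild-type replicate 1 and 68571 CPM over those called without wild-type replicate 2.

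Among called genes, the loss was held by few genes and the gain was spread over many. The first gene held 12.2% of the loss, the first 10 genes held 38.1%, 29 genes held 50% and 434 held 90%. For the gain, the first gene held 4.10%, the first 10 held 17.7%, 130 genes held 50% and 768 held 90%. The 18 lower genes of the top class held 43.3% of the loss, and the 389 lower genes of 100 to 1000 CPM held 44.5%. The gain lay lower down, with 46.8% in the 986 higher genes of 10 to 100 CPM and 43.4% in the 154 of 100 to 1000 CPM. Without replicate 3, 41 genes held 50% of the loss and 175 held 50% of the gain.

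**Figure D3:**
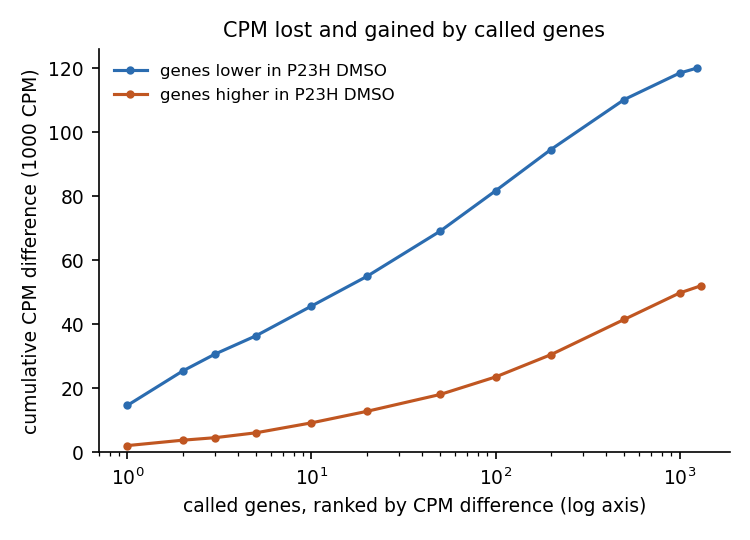
Cumulative difference in mean CPM between wild type and P23H DMSO (vertical axis, in units of 1000 CPM) over called genes, ranked by their own difference on a log axis, for genes lower (blue) and higher (orange) in P23H DMSO. The lower genes reach 38.1% of their total with the first 10 genes, and the higher genes reach 17.7%.

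Over whole libraries, with no choice of genes by test, counts were spread more evenly over genes in P23H DMSO. Genes of 1000 CPM and over took 13.6%, 14.4%, 10.4%, 14.4% and 15.0% of the counts in P23H DMSO replicates 1 to 5, and 18.7% in each wild-type library. The means were 13.6% ± 1.82 (SD, n = 5) and 18.7% ± 0.0297 (SD, n = 2), and the groups did not overlap. The exact two-sided permutation p was 0.0952, which is the smallest that 5 libraries against 2 allow, and 0.109 after Benjamini-Hochberg adjustment over 8 such measures. Without replicate 3 the P23H DMSO mean was 14.3% ± 0.571 (SD, n = 4), and the smallest p that this design allows, in the exact test, is 0.133.

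Genes of 10 to 100 CPM took 34.4% to 35.3% in 4 P23H DMSO libraries and 39.1% in replicate 3, above 31.3% and 31.5% in wild type. Genes of 1 to 10 CPM took 0.701% to 0.782% in 4 P23H DMSO libraries and 1.44% in replicate 3, above 0.528% in both wild-type libraries. The share of genes of 100 to 1000 CPM overlapped between the groups, at 49.0% to 50.5% in P23H DMSO and 49.3% to 49.5% in wild type, with an exact permutation p of 0.286. The top class and the classes under 100 CPM thus lay on opposite sides of wild type with no overlap, and the class between them overlapped.

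The effective number of genes, the number of equally abundant genes that would give the same evenness (the exponential of the Shannon entropy of the counts), was 5028 ± 200 (SD, n = 5) in P23H DMSO and 3956 ± 28.3 (SD, n = 2) in wild type. Replicate 3 was again the extreme library at 5327, and 4832 was the lowest P23H DMSO value, above 3976, the higher wild-type value. The number of genes at 1 CPM or more was 12009 to 12020 in P23H DMSO and 11918 and 11928 in wild type, over a table with nearly no genes seen in wild type alone. For both measures the exact permutation p was 0.0952, the smallest the design allows.

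**Figure D4:**
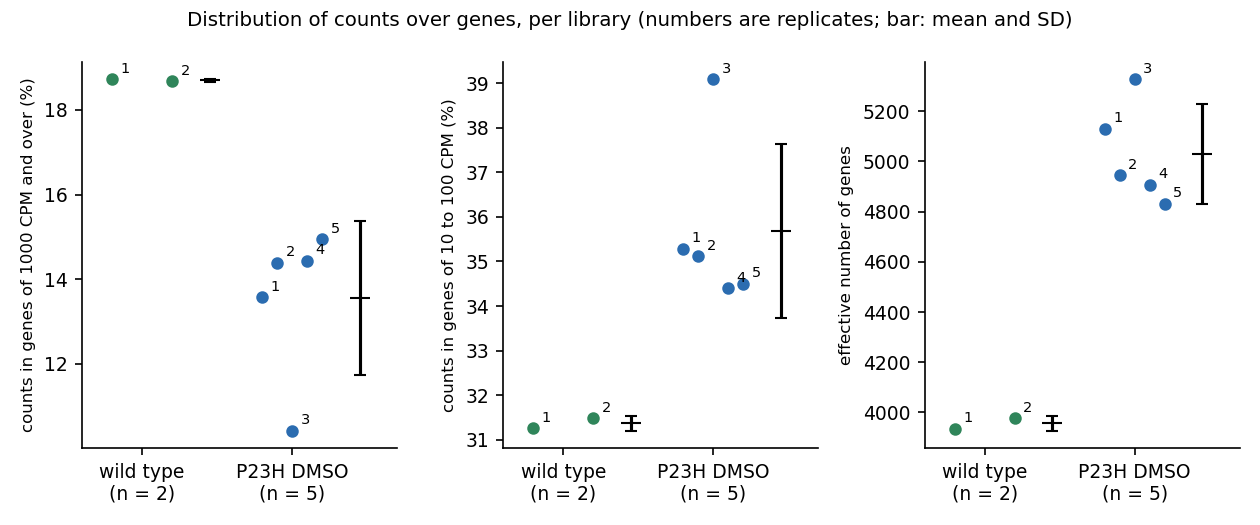
Share of counts in genes of 1000 CPM and over (left, %), share in genes of 10 to 100 CPM (middle, %) and effective number of genes (right) in each wild-type (green) and P23H DMSO (blue) library, with replicate numbers and the mean and SD in black; the vertical axes do not start at 0. The groups do not overlap in any panel, and P23H DMSO replicate 3 lies furthest from wild type in all 3.

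Of single genes, 4 are named, the first by difference in CPM and the first by fitted fold in each direction. The files do not pair these identifiers with gene names, and nothing is said of what the genes do. ENSRNOG00000011144 had the largest loss in CPM. Its level was 10843, 8569, 3391, 12643 and 15256 CPM in P23H DMSO replicates 1 to 5, and 27949 and 25207 CPM in wild type. The groups did not overlap, and replicate 3 was the lowest library. The log2 fold change was -1.39 (SE 0.41), with an adjusted p of 0.0375 in edgeR's quasi-likelihood test. Across 24 alternative settings the adjusted p ranged up to 0.172 and passed in 18.

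ENSRNOG00000030058 had the largest fitted loss. It had 0 CPM in P23H DMSO replicates 1, 2 and 5, 0.582 CPM in replicate 3 and 0.116 CPM in replicate 4, and 27.3 and 49.0 CPM in wild type. The gene was near or at 0 in every P23H DMSO library and present in both wild-type libraries. The wild-type mean was 273 times the P23H DMSO mean, and the adjusted p was 0.0054 by edgeR. It passed in 23 of 24 alternative settings, with adjusted p up to 0.287. Among P23H retinas given halofantrine it was at 0 CPM in replicate 1 and at 14.0, 24.9 and 21.3 CPM in replicates 2 to 4, so that P23H retinas as a whole were not uniformly without it.

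ENSRNOG00000016460 had the largest gain in CPM. Its level was 1919, 1602, 5564, 1588 and 1602 CPM in P23H DMSO replicates 1 to 5, and 360 and 321 CPM in wild type. All P23H DMSO libraries lay above wild type, 4 of them close together and replicate 3 far above the rest. The log2 fold change was 2.85 (SE 0.54, adjusted p 0.00591 by edgeR), and 2.23 without replicate 3. It passed in 22 of 24 alternative settings, with adjusted p up to 0.085.

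ENSRNOG00000011124 had the largest fitted gain. It was at 15.7, 2.86, 124, 33.6 and 52.4 CPM in P23H DMSO replicates 1 to 5 and at 0 in both wild-type libraries. The 5 P23H DMSO values spread widely, and all lay above the 0 of wild type. Against a floor of 3 counts in each wild-type library, the P23H DMSO mean was at least 215-fold higher, and at least 123-fold higher without replicate 3. The adjusted p was 0.0257 by edgeR, and it passed in 20 of 24 alternative settings, with adjusted p up to 0.684.

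**Figure D5:**
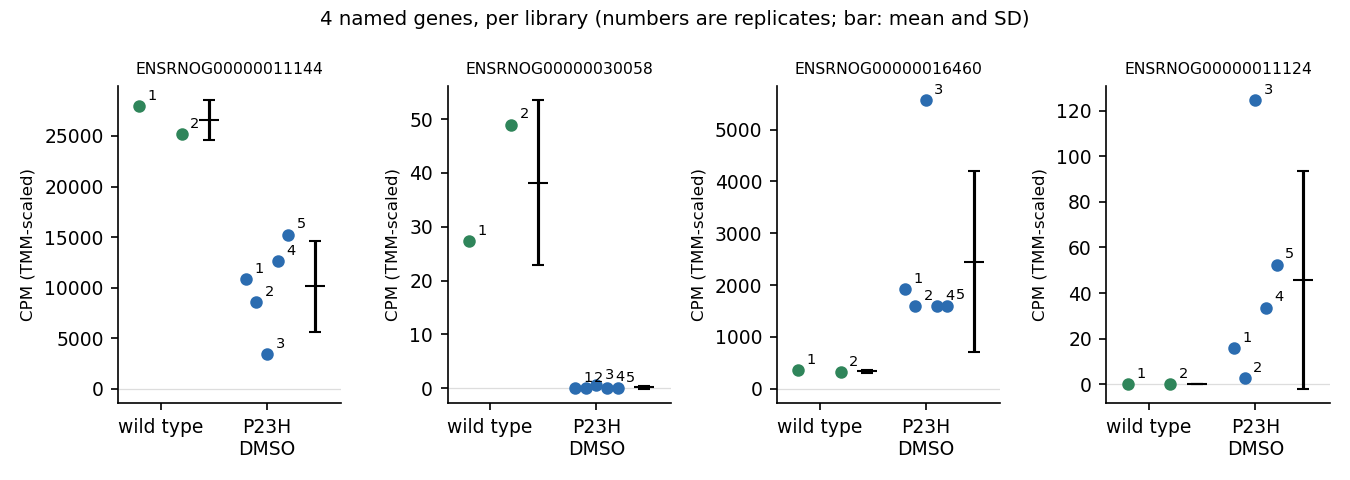
TMM-scaled CPM of the 4 named genes in each wild-type (green) and P23H DMSO (blue) library, with replicate numbers and the mean and SD in black. The groups do not overlap for any of the 4 genes, and P23H DMSO replicate 3 is the lowest library for ENSRNOG00000011144 and the highest for ENSRNOG00000016460 and ENSRNOG00000011124.

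Complete absence on one side was rare among the features listed. In the gene table, no gene had at least 1 CPM in both wild-type libraries and 0 in all 5 P23H DMSO libraries, and 3 genes showed the opposite pattern. These 2 counts were largely set by what the gene table holds, since 99.7% of its genes had over 1 CPM in at least 9 of 11 libraries. A gene at 0 in all 5 P23H DMSO libraries cannot reach 9, and a gene at 0 in both wild-type libraries can. In the transcript table there were 9 and 76 such transcripts, and at a minimum of 5 CPM there were 0 and 3. The first pattern asks for 0 in 5 libraries and the second in 2, and they were not tested against each other. A count of 0 allows a level of up to 3 counts in a library.

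Among transcripts, the share called lower also climbed with abundance, and the share called higher did not decline as it did among genes. Of 43372 transcripts tested, 1259 (2.9%) differed by the same edgeR test and threshold, 655 lower (1.51%) and 604 higher (1.39%). Without replicate 3, 2107 of 41777 (5.04%) differed, 998 lower (2.39%) and 1109 higher (2.65%). Leaving out wild-type replicate 1 or 2 gave 446 or 231 transcripts, and leaving out P23H DMSO replicate 1 or 4 gave 836 or 802. From transcripts under 1 CPM through those of 1 to 10, 10 to 100, 100 to 1000 and 1000 CPM and over, the share lower was 0.0332%, 0.564%, 2.87%, 9.12% and 25.6%. The share higher was 0.723%, 1.26%, 2.15%, 1.54% and 2.33% over the same classes. The share called in either direction climbed as well, at 0.756%, 1.83%, 5.02%, 10.7% and 27.9%. Over every transcript of a class, called or not, the median log2 fold change declined as among genes. It was 0.40, 0.15, 0.04, -0.05 and -0.30 from the lowest to the highest class. Without replicate 3 the share lower was 0.0548%, 0.875%, 4.42%, 14.1% and 33.3%, and the share higher was 1.40%, 2.57%, 3.84%, 2.63% and 0%. The top class held 43 transcripts, or 42 without replicate 3, so that its share higher rests on 1 transcript or none.

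Called transcripts had larger fitted folds than called genes, but the 2 sets were not selected alike. Of transcripts tested 2.9% were called, against 21.2% of genes, so the folds of the called sets do not compare transcripts with genes in general. Of the lower transcripts, 113 of 655 (17.3%) fell by 4-fold or more, with a median fold of 2.29, and of the higher transcripts, 337 of 604 (55.8%) rose by 4-fold or more, with a median fold of 4.73. Without replicate 3 these counts were 114 of 998 and 481 of 1109. The higher transcripts were scarce, with a median wild-type level of 3.40 CPM against 65.0 CPM for the lower ones.

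For 3417 genes (28.4% of the table), the gene counts equalled those of exactly 1 transcript in every library. Of 3416 such genes tested in both tables, 674 were called as genes and 236 as transcripts, and all 236 were among the 674, with no change of direction. Their log2 fold changes were close in the 2 fits, with a median absolute difference of 0.0133. The counts were the same in both tables for these genes, while the fits took their scaling, their spread and the number of tests adjusted for from different sets of features. The part of each in the fewer calls was not tested.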

How the data were processed

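The authors quantified reads against the rat transcriptome (Ensembl release 115 in the methods) with kallisto and summed transcripts to genes with tximport. Tool versions were not given in the sources used here. The deposited gene and transcript tables hold estimated counts with no scaling for depth. Besides these, the authors gave a table of normalized signal, in which each library's gene counts are divided by a fixed number, and its library sizes served only as an alternative scaling. Their table of differential expression holds fold changes and p-values for another pair of groups and was not used.

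Groups came from the sample labels. Replicates were numbered in accession order and pair no samples. Counts were rounded and kept by filterByExpr of edgeR, which removed 6 genes and 52100 transcripts. Differences were tested with glmQLFTest (edgeR 4.0.16, R 4.3.3) after TMM scaling, in a fit that held all 11 libraries, with p-values Benjamini-Hochberg adjusted over all features, with a threshold of 0.05. Single measures were compared by exact permutation (SciPy 1.17.1). DESeq2 1.42.0 and limma 3.58.1 were alternatives. Log ratios of single libraries used a pseudocount of 0.5 CPM.

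Abundance classes had bounds of 1, 10, 100 and 1000 CPM. Sums of CPM lost or gained used CPM without TMM. Named genes were the first by CPM difference and by fitted fold in each direction, and at most 2 identifiers in each direction were named because 0 identifiers matched a symbol in the RefSeq table of assembly GRCr8, whose Ensembl column is empty. Gene lists that had been set up by symbol were for that reason not analysed here. The comparison, lists and classes were chosen with earlier results of these data known. Near-identical genes can share counts in kallisto.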

Additional observations from a re-analysis of the deposited data

Results flagged for a closer look

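In 14 sets of values from the 5 P23H DMSO libraries, the most extreme library was compared with the rest by Dixon's ratio, the gap to its nearest neighbour divided by the range. It passed the 95% critical value, which chance passes in about 1 in 20 sets, in 6 sets, and in each the library was P23H DMSO replicate 3. This library had been singled out before these sets were formed, the sets share the same 5 libraries, and the gain in CPM and the named genes were chosen by a difference to which it contributes. The count is therefore a description and no test. Genes of 1 to 10 CPM took 1.44% of its counts, against 0.701% to 0.782% in the others. Genes of 10 to 100 CPM took 39.1%, against 34.4% to 35.3%. The 20 genes of highest mean CPM took 5.63%, against 8.44% to 9.52%. Its gain in CPM over the higher genes was 84457, against 41046 to 47012. It had 0.582 CPM of ENSRNOG00000030058, against 0 to 0.116, which is a few counts, and 5564 CPM of ENSRNOG00000016460, against 1588 to 1919. What sets this library apart was not tested.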

How the results depend on the processing

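Of 174 recomputed counts and sums, 136 stayed within 1.5 times the value reported (or, for sums and shares, within the spread between libraries) and 38 did not. Counts and shares cannot reverse, and the sums are over genes chosen as lower, so these values did not test direction. The larger side could change, and in some settings it did. Genes lower and higher numbered 1240 and 1308 in the main fit. They were 1449 and 1135 with median-of-ratios factors, 1410 and 1050 with only the 7 libraries, and 1093 and 634 with limma-voom. Other settings kept more genes higher, among them total counts, with 795 and 1927. For the 4 named genes, 83 of 96 values kept their side of the threshold and 13 lost it. Genes that differed numbered 4454 at the study's p and fold thresholds (unadjusted p under 0.05 and at least 1.2-fold). The study also kept only the top genes in each direction, and that limit was not applied here. Lower genes numbered 795 with total counts, and higher genes 634 with limma-voom. Genes higher by 4-fold or more numbered 35 with limma-voom and 86 with only the 7 libraries in the fit. Transcripts numbered 746 with no filter, 4647 with DESeq2, 831 with limma-voom and 795 with the 7 libraries. The following alternatives were chosen after seeing the data. With sample weights in limma-voom, 7207 genes differed (3312 lower, 3895 higher) and 4524 transcripts. Without P23H DMSO replicate 3 and P23H halofantrine replicate 1, 5387 genes differed (2745 lower, 2642 higher) and 3309 transcripts. With the 7 libraries and no replicate 3, 5396 genes differed (2555 lower, 2841 higher) and 3031 transcripts. Leaving out each library in turn gave 519 to 3646 genes, 362 to 2063 lower and 157 to 1729 higher, 45 to 63 lower and 43 to 208 higher by 4-fold or more, 231 to 2107 transcripts, 18.5% to 38.1% of the top class lower and 65708 to 137018 CPM lost. The lowest counts of genes and transcripts came from leaving out a wild-type library. Why these counts moved was not tested, beyond the fewer libraries or tests in each. CPM per kilobase was not run, because no lengths matched. No paired analysis was made because the labels and columns name no pairs of samples between the groups. With 2 wild-type libraries, exact tests of single measures could not go below 0.0952. The effect of depth on these comparisons was not tested.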
